A study of Arabidopsis thaliana with 3 samples.

Results

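Pericentromeres are the regions that flank the centromeres. In Arabidopsis thaliana they are rich in transposons and other repeats, carry dense DNA methylation and histone H3 lysine 9 methylation, and hold few genes, whereas the chromosome arms are gene-rich and mostly open. Clusters of ribosomal RNA repeats and, on chromosome 2, a long copy of mitochondrial DNA also lie there. AtSDR4L is a plant transcriptional regulator related to rice SDR4, a seed dormancy factor.

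The peaks described here come from chromatin immunoprecipitation and sequencing (ChIP-seq) of AtSDR4L-HA, a form of the protein with an HA epitope tag, in whole seedlings at 4 days from imbibition. There were 2 induced biological replicates, kept on medium with 1 µM β-estradiol, and the control was 1 ChIP from seedlings of the same AtSDR4L-HA line grown without it, so all 3 samples carried the tagged gene and were treated with the same anti-HA antibody. Seeds were stratified for 3 days in the dark and seedlings grown at 22 °C with 16 h of light and 8 h of dark. The authors called peaks in each induced replicate separately, with that 1 control for both, and the promoter behind the tagged gene is not given in the sources used here. Effects of AtSDR4L-HA and of β-estradiol itself cannot be told apart in this design.

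A peak was counted as pericentromeric when its start lay in a fixed window on chromosome 1 (12.5 to 17.5 Mb), 2 (2 to 6 Mb), 3 (11 to 17 Mb), 4 (2 to 5.5 Mb) or 5 (9.5 to 14.5 Mb) of TAIR10. This gave 604 peaks of 13234 nuclear peaks in both lists, 411 of 9811 in replicate 1 and 193 of 3423 in replicate 2. The other 12630 peaks lay on the arms. The rule used position alone, so fold enrichment, repeatability and neighbouring genes were free to vary. Peak files hold no read counts, so the depth of each library is unknown and folds carry no counting error here. Fold enrichment throughout is the authors' value at the summit over the uninduced control. With 2 induced lists, 1 control and peaks that are not replicates, differences between windows and arms are given as values side by side for each replicate, without a test. The 20 peaks just inside the window edges, from both lists, had folds of 1.21 to 2.58 (median 1.67), and the 20 just outside had 1.34 to 6.60 (median 1.79).

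Peaks were sparse in pericentromeric DNA. Replicate 1 had 17.5 peaks per Mb in the windows and 98.3 per Mb on the arms, and replicate 2 had 8.21 and 33.8. The windows made up 19.7% of the sequence, 23.5 Mb in all, and held 1931 protein-coding genes, or 82.2 per Mb, against 267 per Mb on the arms. Per 1000 protein-coding genes, replicate 1 had 213 peaks in the windows and 369 on the arms, and replicate 2 had 99.9 and 127. The lower density in the windows was seen in both replicates, and was smaller when counted per gene than per Mb.

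The label of the windows was checked against their gene content. They held 3267 of the 4843 nuclear pseudogenes in the gene table (67.5%), a class in which RefSeq places most annotated transposon genes of this genome. Pseudogene spans covered 32.0% of the windows and 3.07% of the arms, and protein-coding spans covered 16.3% and 63.4%. The windows thus held the gene-poor, pseudogene-rich sequence that the name describes, and their outer margins were richer in genes than their centres.

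**Figure D1:**
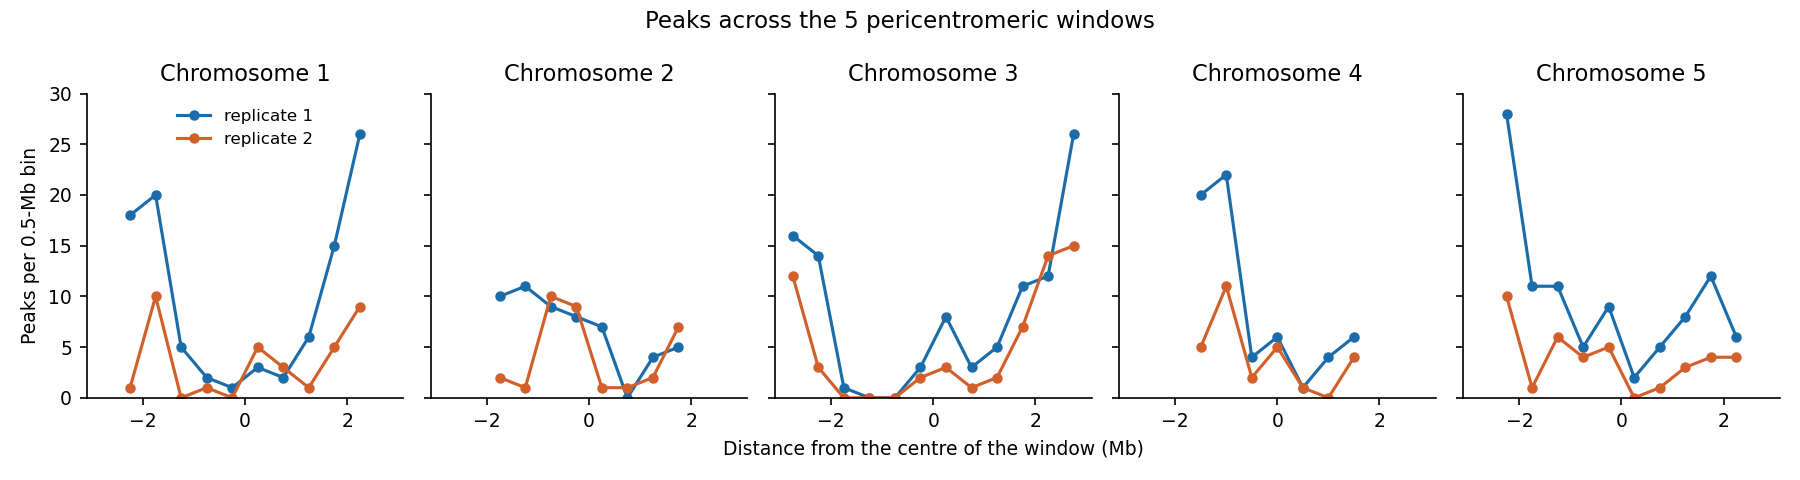
Number of peaks in each 0.5-Mb bin (vertical axis) against the distance of the bin from the centre of its window (horizontal axis, Mb), for each chromosome and each induced replicate. Counts in replicate 1 reach 28 at the outer margin on chromosome 5 and are 0 in 2 adjacent bins of chromosome 3.

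Pooled over chromosomes, peaks within the windows thinned towards the middle. Chromosome 2 differed in replicate 2, with 10 and 9 peaks in the bins at −0.75 and −0.25 Mb from the window centre. Its outermost bins held 2 and 7. In replicate 1 the same inner bins of chromosome 2 held 9 and 8 peaks, and the outermost 10 and 5. In replicate 1 the outermost 0.5 Mb on each side held 161 peaks, or 32.2 per Mb, the next 0.5 Mb held 125 (25.0 per Mb), the next 56 (11.2 per Mb), and the sequence 1.5 Mb or more from an edge held 69 (8.12 per Mb). Replicate 2 had 69, 51, 31 and 42 peaks in the same zones, or 13.8, 10.2, 6.20 and 4.94 per Mb. Counted per 1000 protein-coding genes, replicate 1 had 205, 250, 151 and 249 peaks in these zones from the edge inwards, and replicate 2 had 88.0, 102, 83.8 and 152. By this count the innermost zone was above the outermost in both lists, and the zone next to the innermost was the lowest.

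The number of peaks per Mb differed between the windows of the 5 chromosomes, from 13.5 on chromosome 2 to 19.6 on chromosome 1 in replicate 1, and from 7 on chromosome 1 to 9.83 on chromosome 3 in replicate 2. Fold enrichment also varied. In replicate 1 the chromosome 2 window had the lowest median, 1.56, with 7 of 54 peaks at a fold of at least 2, and chromosome 3 the highest, 1.86, with 41 of 99. In replicate 2 chromosome 3 was again highest, with a median of 1.81 and 23 of 59 peaks at a fold of at least 2, but chromosome 2 was second, at 1.75. The chromosome 2 window was thus lowest in 1 of the 2 lists.

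Fold enrichment over all windows was close to that of the arms. The median was 1.76 in the windows and 1.80 on the arms in replicate 1, and 1.70 in both in replicate 2. A fold of at least 2 was reached by 130 pericentromeric peaks (31.6%) in replicate 1, against 35.0% of all nuclear peaks in that list, and by 51 (26.4%) in replicate 2, against 24.9%. The highest pericentromeric fold was 6.15 in replicate 1, where the highest on the arms was 6.60, and 4.15 in replicate 2, where the arms reached 5.60. Median peak width was 393 bp in the windows and 430.0 bp on the arms in replicate 1, and 375 and 373 bp in replicate 2.

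In both lists the share of pericentromeric summits inside protein-coding spans was above the share of sequence these spans cover, and the share inside pseudogenes was below it. In replicate 1, 165 of 411 summits (40.1%, exact binomial 95% interval 35.4 to 45.1) fell inside a protein-coding span, and in replicate 2, 95 of 193 (49.2%, 42.0 to 56.5), while such spans made up 16.3% of the windows. On the arms the shares were 43.3% and 56.6%, below the 63.4% that coding spans cover there. Summits inside pseudogenes numbered 14 in replicate 1 (3.41%, 1.87 to 5.65) and 5 in replicate 2 (2.59%, 0.846 to 5.94), against 32.0% of window length. All intervals treat peaks as independent and cover counting error only.

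**Figure D2:**
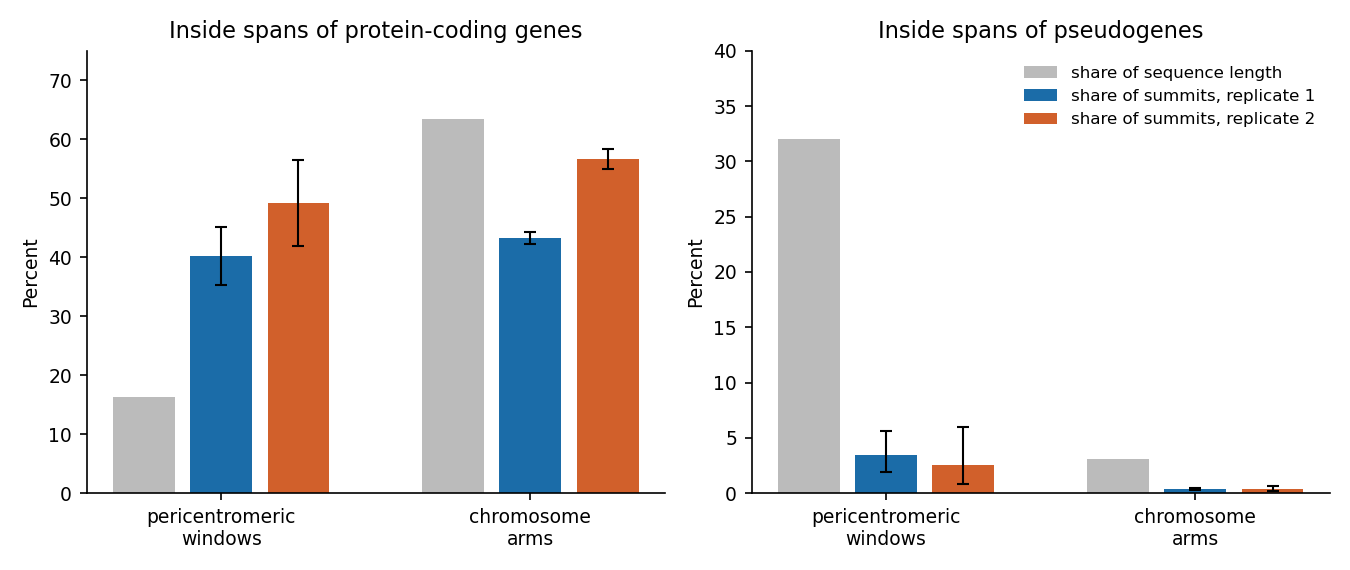
Share of summits (percent, coloured bars, with exact binomial 95% intervals) inside spans of protein-coding genes and of pseudogenes, beside the share of sequence length those spans cover (grey bars), for windows and arms and each replicate. In the windows the coding share of summits is above the grey bar in both replicates and the pseudogene share is below it.

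Most pseudogene peaks had folds under 2 in windows and arms alike. In the windows these ran from 1.09 to 1.68 (median 1.55) in replicate 1 and from 1.45 to 2.10 (median 1.57) in replicate 2. On the arms the medians were 1.62 and 1.61, close to the 1.67 and 1.62 of arm summits in coding spans. The highest arm pseudogene fold was 3.15 in replicate 1, where 3 of 33 reached 2, and 1.95 in replicate 2. Found in both lists were 4 of the 14 window peaks in replicate 1 and 4 of the 5 in replicate 2. On the arms these were 6 of 33 and 5 of 13, and over all nuclear peaks 18.2% and 53.0%. The 221 summits of replicate 1 between annotated genes had a median fold of 1.92, against 1.67 for the 165 in coding spans, and the 84 of replicate 2 had 1.78 against 1.64. A further 11 and 9 summits lay inside RNA genes. The arms showed the same order, with medians of 1.97 between genes and 1.67 in coding spans in replicate 1. How reads with several matches in the genome were handled is not given in the sources used here.

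A gene was counted as beside a summit when 1 of its ends had a summit within 1000 bp on the outer side or 200 bp on the inner side. By that rule 257 of the 1931 window genes (13.3%) were beside a summit in replicate 1, against 31.4% of all protein-coding genes, and 92 (4.76%) in replicate 2, against 10.4%. Genes beside a summit in both lists numbered 42 (2.18%), against 6.48% of all protein-coding genes. The share was lower in the windows than over all genes in each list.

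Pooled over chromosomes, the share of pericentromeric peaks found in both lists was above that of the arms. The margin was small in replicate 2. With 1 shared bp as the minimum, 102 of the 411 in replicate 1 were also in replicate 2 (24.8%, exact interval 20.7 to 29.3), against 18.2% of all nuclear peaks of replicate 1 and 17.9% on the arms. Of the 193 in replicate 2, 105 were also in replicate 1 (54.4%, 47.1 to 61.6), against 53.0% of all nuclear peaks and 52.9% on the arms. The arm value of replicate 2 lies within that interval. The difference from the arms was thus 6.92 percentage points in replicate 1 and 1.49 in replicate 2. The replicate 2 value depended on the rule: it was 6.46 with a reciprocal overlap of at least 50% and 6.93 with windows narrowed by 500 kb at each edge, where replicate 1 had 6.98 and 10.5. The order also differed between chromosomes. In replicate 1 the chromosome 1 window had 17.3%, below the 18.2% of its arms. In replicate 2 the chromosome 2 window had 48.5% against 58.9%, and that of chromosome 3 had 49.2% against 53.5%. On the other chromosomes of each list the window had the higher share.

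The share found in both lists was highest far from the window edges. In replicate 1, 31 of 161 peaks (19.3%, exact interval 13.5 to 26.2) in the outermost 0.5 Mb were found in both lists, and 30 of 69 (43.5%, 31.6 to 56.0) of those 1.5 Mb or more from an edge. In replicate 2 the shares were 31 of 69 (44.9%, 32.9 to 57.4) and 33 of 42 (78.6%, 63.2 to 89.7). The innermost zone was above the arms in both lists. Neighbouring peaks were counted singly, and many in the innermost zone lay in a few local groups. The group at chromosome 2: 3605789-3626339 held 13 peaks found in both lists, counted over the 2 lists together. Those at chromosome 1: 15082116-15085727, chromosome 5: 11184958-11187515 and chromosome 5: 11723384-11735270 held 6 each. The intervals treat such neighbours as independent. These zones were compared after the values were seen, and both lists share 1 control.

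**Figure D3:**
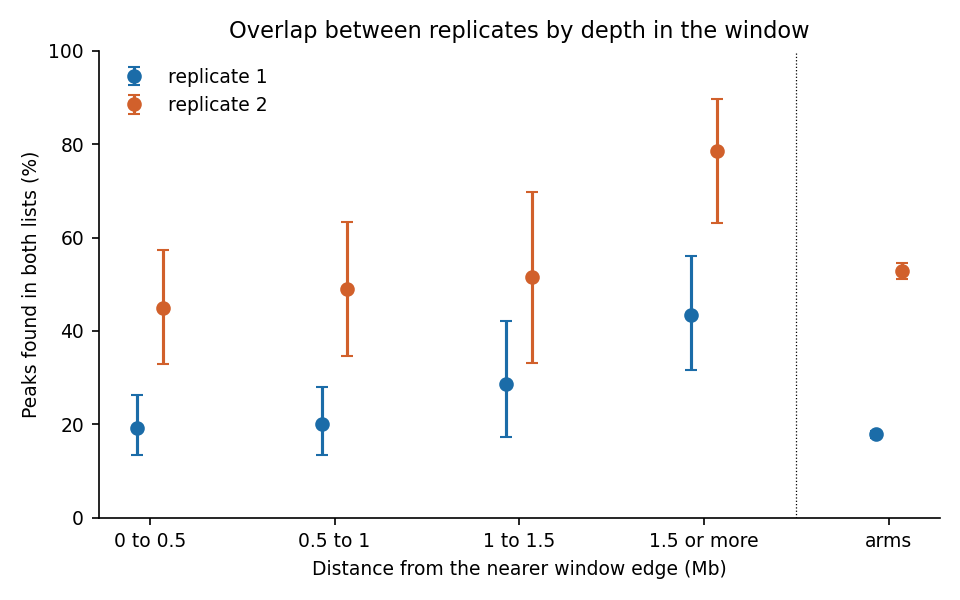
Share of peaks found in both lists (percent, points with exact binomial 95% intervals) by distance from the nearer window edge (Mb), with the arms at the right, for each replicate. The innermost points, 43.5% in replicate 1 and 78.6% in replicate 2, are the highest of each series.

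Peaks of both lists formed 105 overlapping pairs in the windows. The fold was higher in replicate 1 in 79 of them (75.2%), with medians of 2.01 in replicate 1 and 1.75 in replicate 2. On the arms 78.9% of 1717 pairs were higher in replicate 1, with medians of 2.29 and 1.79. Both folds reached 2 in 23 of the 105 pairs (21.9%) and in 28.9% of the arm pairs. Across the 105 pairs the Spearman correlation of the folds was 0.650, and 0.532 across the arm pairs. These are correlations across sites that share a control.

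**Figure D4:**
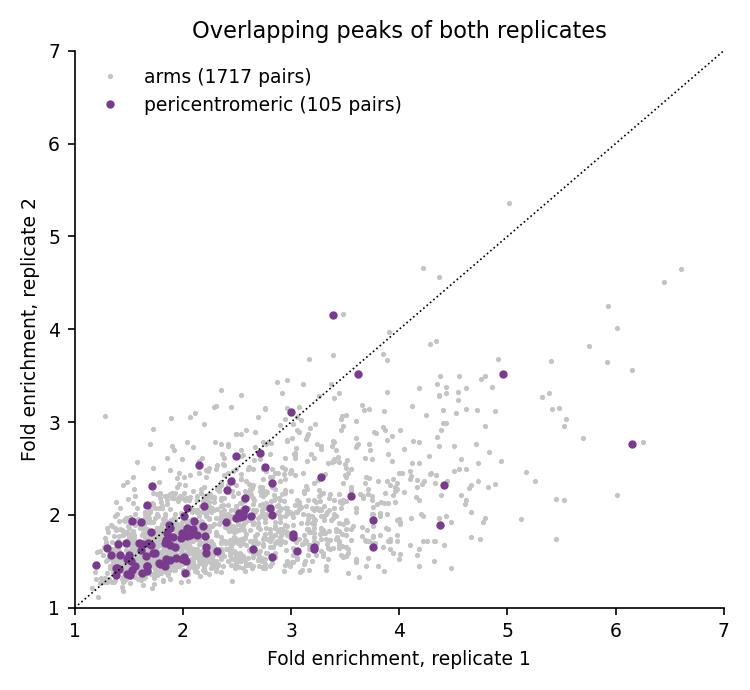
Fold enrichment in replicate 1 (horizontal axis) and replicate 2 (vertical axis) for every pair of overlapping peaks, with pericentromeric pairs in purple, arm pairs in grey and a dotted line of equal fold. Most purple points lie below the line, and the pair at 3.39 and 4.15 lies above it.

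Of the 10 shared regions with the highest mean fold, all but AN3 lay between annotated genes. The first was at chromosome 5: 9944552-9945246, beside AT5G27920, with a fold of 6.15 in replicate 1 and 2.77 in replicate 2. A second pair beyond the same gene, at chromosome 5: 9946616-9947791, had 3.55 and 2.20. Both were higher in replicate 1.

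The next region lay at chromosome 3: 11383627-11384660 beside AFP3, whose product belongs to the family of proteins that bind the bZIP factor ABI5 and dampen abscisic acid responses. Its fold was 4.96 in replicate 1 and 3.52 in replicate 2. A weaker pair at chromosome 3: 11386623-11387167 had 2.31 and 1.61. In the authors' deposited table of irreproducible discovery rates (IDR, low for regions ranked high in both lists) the first AFP3 region stood at 0.449, far from the usual limit of 0.05. That table lists a −log10 q of 1.02 for this region in replicate 1, the value of a weaker summit of the same peak, whereas its best summit had 75.6. Among the 102 pericentromeric regions of the authors' deposited table, 33 (32.4%) were listed with a −log10 q at least 0.01 below the best summit of the same peak in 1 or both lists. On the arms this held for 35.5%, so IDR values of such regions rest on a summit that is not the best of its peak.

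On chromosome 3, 2 of the first 10 regions had similar folds in both lists, and another was higher in replicate 2. At chromosome 3: 11798652-11799030, beside AT3G30165, the fold was 3.39 in replicate 1 and 4.15 in replicate 2, the highest pericentromeric value of that list. At chromosome 3: 16599113-16599532, beside AT3G45260, it was 3.62 and 3.52. At chromosome 3: 16524971-16525339, beside LOX2, a lipoxygenase of jasmonate synthesis in chloroplasts, it was 3.00 and 3.11. A neighbouring pair at chromosome 3: 16524182-16524469 had 2.49 and 2.64. Replicate 2 had a further peak over the body of LOX2, at chromosome 3: 16525807-16527800, with a fold of 2.72 and no counterpart in replicate 1. LOX2 was thus flanked by 2 pairs on 1 side in both lists, and covered by a peak in 1 list.

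The other 4 regions among the first 10 were higher in replicate 1. The region with COBL2 as its nearest coding gene, which encodes a COBRA-like protein of the seed coat, had 4.41 and 2.33 at chromosome 3: 11725162-11725553. The region at chromosome 4: 2415321-2415999, with the lncRNA gene AT4G04965 as its nearest feature and AT4G04745 as its nearest coding gene, had 4.38 and 1.89. A region over 5 kb from any coding gene, at chromosome 1: 15880278-15880741, had 3.76 and 1.95. The summit inside AN3, which encodes a transcriptional coactivator of leaf cell proliferation, had 3.28 and 2.40 at chromosome 5: 10648606-10649001.

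On chromosome 1 the highest fold in replicate 1 was 3.76, inside AT1G45010, where replicate 2 had 1.66. On chromosome 4 the highest of replicate 2 was 2.32, inside AT4G08240, where replicate 1 had 1.71. Further down the order came pairs near regulatory genes, which were picked after their values were seen. MYB74, an R2R3-type MYB gene of stress responses, had pairs with folds of 3.21 and 1.66 and of 2.01 and 1.99. BZO2H3, which encodes the bZIP63 factor of energy signalling, had 3.21 and 1.63. AT1G35560 (TCP23), of the TCP transcription factor family, had 3.02 and 1.77, and CDPK2, a calcium-dependent protein kinase gene of abscisic acid signalling, had 3.05 and 1.61. Replicate 1 was the higher in each of these pairs, by little in the second at MYB74.

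The region nearest to NRT2.6, of the high-affinity nitrate transporter family, had 2.83 and 2.00 at chromosome 3: 16481465-16482154. A region whose nearest coding gene was NIA2, the major nitrate reductase gene, had 2.51 and 2.03, but lay over 5 kb from it with the pseudogene AT1G37120 as its nearest feature, and was likewise picked afterwards. By contrast MIR396b, picked afterwards too, whose microRNA targets growth-regulating factor genes, was the nearest feature to a region with 2.71 and 2.67 at chromosome 5: 13614016-13614544. A second pair with MIR396b as its nearest feature, at chromosome 5: 13612257-13613460, had 2.53 and 1.98. Both MIR396b regions lay over 5 kb from any coding gene. Of these regions, the first near MIR396b had the smallest difference between the replicates, and the second had a larger one than that nearest to NIA2.

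Of 102 pericentromeric regions in the authors' deposited table, 18 had an IDR no higher than 0.05 (17.6%, exact interval 10.8 to 26.4), against 10.2% of all nuclear matched regions and 9.80% on the arms. A limit of 0.01 on that value left 9 pericentromeric regions of the authors' deposited table (8.82%, 4.11 to 16.1) and 3.41% on the arms. A limit of 0.1 gave 21 (20.6%, 13.2 to 29.7) in the authors' deposited table and 16.7% on the arms, a share that lies within the interval. The gap between windows and arms was thus smaller at the loosest of these limits. The median IDR in the authors' deposited table was 0.318 in the windows and 0.345 on the arms.

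By IDR in the authors' deposited table, the first 4 regions lay at chromosome 3: 14201435-14201798 (IDR 4.17e-05), chromosome 3: 13591451-13591792 (0.000124), chromosome 5: 11185512-11185788 (0.000217) and chromosome 3: 14196423-14197567 (0.000397). Their folds were 2.04 and 1.86, 1.73 and 1.59, 2.76 and 2.52, and 2.57 and 2.18 in replicates 1 and 2. Next came a region beside TPR3, a gene of the TOPLESS corepressor family, at chromosome 5: 9515492-9515929 (IDR 0.00175 in the authors' deposited table, folds 2.57 and 2.07). Of the 10 regions with the highest mean fold, 6 were among the 18 at or under 0.05. In the authors' deposited table the region beside AT3G30165 stood at 0.00794, the first region beside AT5G27920 at 0.00877, that beside AT3G45260 at 0.0112, AN3 at 0.0219, LOX2 at 0.0325 and COBL2 at 0.0402. The region at RPA1A, which encodes a subunit of the single-strand DNA-binding replication protein A, had folds of 1.91 and 1.76, and the authors' deposited table lists it at 0.0382.

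The 4 regions of lowest IDR had −log10 q values above 100 in both lists at folds under 3. In a Poisson-based peak call the q-value depends on the fold and on the number of fragments at the site, so at equal fold a higher −log10 q goes with more fragments in the ChIP and the control. A −log10 q of at least 50 with a fold under 3 was found for 13 of 411 pericentromeric peaks in replicate 1 (3.16%, exact interval 1.70 to 5.35), against 0.398% of all nuclear peaks and 26 of 9400 (0.277%) on the arms. In replicate 2 it was found for 10 of 193 (5.18%, 2.51 to 9.32), against 2.95% of all nuclear peaks and 91 of 3230 (2.82%) on the arms. The arm share of replicate 2 lies within the interval of its windows. The limits of 50 and 3 were set after the values were seen.

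**Figure D5:**
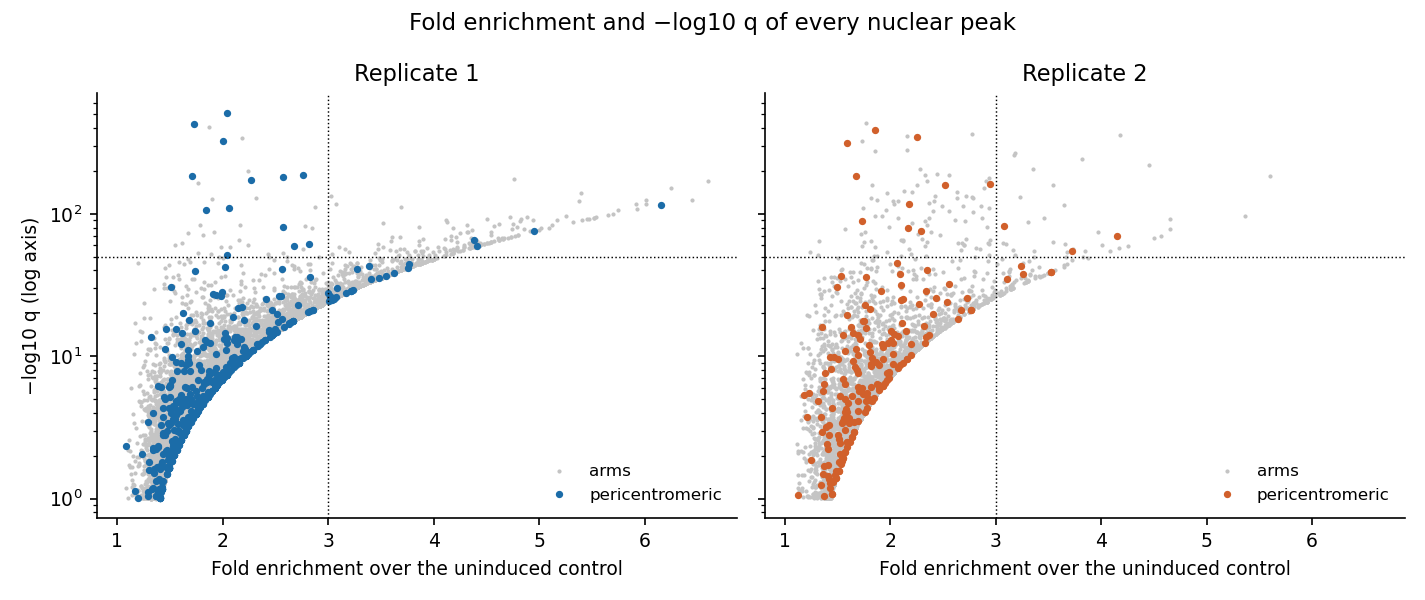
−log10 q (vertical axis, log scale) against fold enrichment (horizontal axis) for every nuclear peak of each replicate, with pericentromeric peaks coloured and arm peaks grey; dotted lines mark a −log10 q of 50 and a fold of 3. Most peaks follow 1 lower curve, and the pericentromeric peaks above 50 at folds under 3 stand away from it. So do the arm peaks within these limits, 26 in replicate 1 and 91 in replicate 2.

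In replicate 1, 11 of the 13 lay 1.5 Mb or more from a window edge, and 9 of the 13 were found in both lists. In replicate 2, 6 of the 10 lay in that inner zone, and all 6 were found in both lists. On the arms 6 of 26 in replicate 1 and 4 of 91 in replicate 2 were found in both lists. The peaks of this kind found in both lists fell mainly in 4 places, described in turn.

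The first place was the ribosomal RNA gene cluster of chromosome 3. Peaks lay on both sides of the annotated genes AT3G41768 and AT3G41979. In replicate 1 they were at 14195719-14196148 (fold 2.00, −log10 q 325), 14196423-14197567 (2.57 and 181) and 14201435-14201798 (2.04 and 512), with a further weak peak at 14207631-14208884 (1.63 and 7.91). In replicate 2 the peaks with the highest fold and the highest −log10 q were present, with 2.18 and 117 and with 1.86 and 386. No peak of either list lay between them, over the annotated genes themselves.

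The second place was a stretch of chromosome 3 with a pseudogene, AT3G33055, as its nearest feature and no coding gene within 5 kb. Replicate 1 had peaks at 13590346-13590774 (fold 1.70, −log10 q 183) and 13591451-13591792 (1.73 and 428). Replicate 2 had them at 13590344-13590768 (1.68 and 184) and 13591533-13591780 (1.59 and 314). The starts of the first peak differed by 2 bp between the lists.

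Another place was a group of peaks at chromosome 5: 11184958-11187515, beside the pseudogene AT5G29550. Replicate 1 had 4 peaks there, with folds of 2.06, 2.76, 1.67 and 2.82, and replicate 2 had 3, with 2.52, 1.69 and 2.34 for the last 3 of them. The highest −log10 q was 187 in replicate 1 and 159 in replicate 2. The last was at chromosome 4: 3950558-3951300, beside the pseudogene AT4G06700, with a fold of 1.84 and a −log10 q of 106 in replicate 1 and 1.73 and 89.0 in replicate 2. A fold under 3 was part of the limits by which these 4 places were found. No shared peak in them had its summit inside a protein-coding span. The other peaks of this kind found in both lists were those beside TPR3 and inside AT2G08986, which passed the limits in replicate 1. Those found in 1 list were near AT2G10940, GME and within 2 of the 4 places in replicate 1, and at or near OPR3, ILL6, AT3G44610 and AT3G44630 in replicate 2.

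Taking both lists together, window peaks no more than 5 kb apart formed 41 groups of at least 4, which held 216 of the 604 peaks (35.8%), and on the arms 51.4% of peaks were in such groups. A pair of neighbouring sites found in both lists already makes a group of 4. The largest, on chromosome 2 from 3605789 to 3626339, held 14 peaks, 6 of replicate 1 and 8 of replicate 2, of which 13 were found in both lists. Folds there ran from 1.51 to 2.09 in replicate 1 and from 1.35 to 2.07 in replicate 2. It spanned 20.6 kb around AT2G07981 and AT2G08986, with 7 summits inside coding spans.

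The next largest had no summit in a coding span and lay at chromosome 5: 11723384-11735270. It held 5 peaks of each list, 6 of them found in both, with folds of 1.53 to 2.14 in replicate 1 and 1.38 to 1.93 in replicate 2. A group at chromosome 1: 15082116-15085727, inside AT1G40104, held 2 peaks of replicate 1 and 4 of replicate 2, all found in both lists, with folds of 1.62 to 1.92. These groups were of modest fold in both replicates.

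The copy of mitochondrial DNA on chromosome 2 held weak peaks. Over 0.264 Mb starting at ABCI5, the first annotated gene of that copy used here, replicate 1 had 8 peaks with folds of 1.20 to 1.68 (median 1.50) and replicate 2 had 10 with folds of 1.32 to 2.10 (median 1.53). In each list 5 of them were found in the other. The mitochondrial genome itself had 13 peaks in replicate 1 and 37 in replicate 2, with median folds of 1.25 and 1.26. How reads alike in both were placed was not among the details at hand.

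Peaks found in 1 list lay inside coding spans in a larger share in replicate 2. Replicate 1 had 309 such pericentromeric peaks, 44.0% of them inside coding spans, and replicate 2 had 88, 65.9% of them inside (exact interval 55.0 to 75.7). On the arms these shares were 44.8% and 74.8%. The highest folds of replicate 1 were 3.48 beside PSK3, a gene for a phytosulfokine peptide precursor, 3.40 beside NAC3, a NAC transcription factor gene, and 3.24 beside AT4G04745.

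In replicate 2 the highest were 3.73 inside AT1G42470, 3.26 inside AT3G44870 and 3.24 beside SERK4, which encodes a co-receptor kinase of immune and brassinosteroid signalling. SERK4 had another 3 peaks of replicate 2 inside its span, with folds of 1.35, 2.09 and 3.08, and 1 of replicate 1, with 1.59, which none of them overlapped. The replicate 2 peaks were thus spread along the gene.

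Peaks of at least 1500 bp, a limit set after the values were seen, numbered 8 of 193 in the replicate 2 windows (4.15%, against 4.35% of all nuclear peaks of that list). None of the 8 was found in replicate 1, and on the arms 22 of the 141 such peaks were. The summits of 6 of the 8 lay inside coding spans, as did those of 104 of the 141 on the arms. In replicate 1 there were 5 of 411 (1.22%, against 2.88% of all nuclear peaks). Of these, 2 were found in replicate 2, as were 114 of 278 on the arms. The widest of replicate 2 covered OPR3, which encodes the 12-oxophytodienoate reductase of jasmonate synthesis, over 3358 bp at chromosome 2: 2358742-2362099, with a fold of 2.25 and a −log10 q of 344. ILL6, whose amidohydrolase splits jasmonate conjugates, had a peak of 2812 bp at chromosome 1: 16834733-16837544 with a fold of 2.29. LOX2 had the 1994-bp peak given above, and FAMT, a farnesoic acid methyltransferase gene, and its neighbour AT3G44870 had 2.77 and 3.26. In these genes replicate 1 had no peak over the body that overlapped those of replicate 2.

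The jasmonate genes under wide replicate 2 peaks in the windows prompted a look at the pathway on all chromosomes, with a list of 23 genes of jasmonate synthesis and turnover written after those values were seen and given no test. In replicate 2, 11 of the 23 had a summit inside their span, against 6.38% of all protein-coding genes, and 6 had a peak of at least 1500 bp there, against 0.423%. Both counts include LOX2, OPR3 and ILL6, whose wide peaks prompted the list, so neither count is independent of how the list arose. In replicate 1, 3 had a summit inside, against 14.2% of all protein-coding genes, and 0 had such a wide peak, against 0.386%. The 6 were LOX2, OPR3 and ILL6 in the windows and LOX3, AOC3 and CYP94C1 on the arms. LOX3, a lipoxygenase gene, had 2 replicate 2 peaks, with a highest fold of 1.82 and a greatest width of 2467 bp, each taken over both peaks. AOC3, an allene oxide cyclase gene, had 1 peak with a fold of 1.64 and a width of 1565 bp. CYP94C1, a gene of jasmonate oxidation, had 1 with 2.87 and 2013 bp. The 3 genes with a replicate 1 summit were AIM1, JAR1 and CYP94C1. At CYP94C1 the replicate 1 peak was 404 bp wide, with a fold of 2.49. AOS, the allene oxide synthase gene, had no summit inside in either list. The wide peaks over these genes were thus listed in 1 of the 2 replicates.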

How the data were processed

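Per the series' design text, the authors called peaks with MACS2 2.2.7.1 on trimmed paired-end reads of each induced replicate against the uninduced control. Bowtie2 2.3.5.1, SAMtools 1.7 and TAIR10 are named in the submitters' processing notes. Mapping filters and the IDR version were not stated there. The deposited lists give each peak's score, fold (a ratio over the control) and −log10 p and q. The authors' deposited IDR table gives a scaled score and −log10 IDR.

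Rows with the same interval were merged, keeping the highest −log10 q. Genes came from a RefSeq table of TAIR10.1, used for names, neighbours and spans. Coordinates are 1-based on TAIR10. Intervals are exact binomial at 95%. Named regions were the 10 pairs of highest mean fold, those of low IDR, the highest per chromosome, the 3 highest found in each list alone, and those near rRNA genes or the mitochondrial copy. Others are said to be chosen afterwards. Gene-list and promoter parts of the plan, with the motif search, were not run for lack of lists and sequence. The members and lists were chosen with earlier results of these data known. Alternatives covered window edges, overlap rules, q and IDR limits, single replicates, rRNA neighbours and chromosome 2. Functions were tested on simulated data. The work used matplotlib 3.10.9, scipy 1.17.1, numpy 2.4.6 and pandas 2.3.3 in Python 3.11.15.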

Additional observations from a re-analysis of the deposited data

How the results depend on the processing

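No paired analysis was possible because both induced lists were called against 1 shared control, which has no peak list of its own, and no result comes from a test. Of 52 alternative values, 38 stayed within 1 SD of the replicates (or the exact interval for IDR), and 14 moved. Another 12 leave out a replicate, which with 2 replicates cannot move a mean by 1 SD, so they say nothing of stability. With windows narrowed by 500 kb, the difference between windows and arms in peaks found in both lists was 8.71 percentage points in place of 4.21 (mean of replicates), that in summits inside coding spans −10.2 in place of −5.27, and that in peaks of high −log10 q and low fold 4.49 in place of 2.63. The last was 2.11 with widened windows, 1.84 without rRNA neighbours, 3.77 and 2.24 at a −log10 q of 30 and 100, and 2.01 at a fold under 2.5. At a −log10 q of at least 10 the difference in peaks found in both lists was 8.22, the innermost zone exceeded the outermost by 39.96 points in place of 28.9, and the log2 ratio of median folds was −0.081 (−0.041 at 5) in place of −0.014. With spans widened by 1000 bp the coding difference was −15.9. In the authors' deposited table an IDR limit of 0.01 gave 8.82% in place of 17.6%, and on the arms 3.41% in place of 9.80%. A stricter limit can only lower these shares, so this move says nothing of stability. With either replicate left out, the log2 density ratio ran from −2.49 to −2.04, the fold ratio from −0.03 to 0.0027, the overlap difference from 1.49 to 6.92, the coding difference from −7.40 to −3.13, the high −log10 q difference from 2.36 to 2.89 and the zone difference from 24.2 to 33.6. The zone and high −log10 q comparisons and their alternatives were chosen after seeing the data. Depth is unknown, so sites missing from a list cannot be called unbound.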
